A study of Mus musculus with 8 samples.

Results

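Dermal fibroblast matrix genes, 10 in number, were followed through both deposited tables of an RNA sequencing study of mouse hair matrix keratinocytes. They were Col1a1, Col1a2, Col3a1, Col5a1, Col5a2, Col6a1, Col6a2, Lum, Fbn1 and Pdgfra, taken by gene symbol, and all 10 were found among the 26200 genes that the tables share. Hair matrix keratinocytes are proliferating epithelial cells of the hair bulb. The 4 groups compared had 2 libraries each, all from hair matrix cells sorted by flow cytometry from mouse skin at postnatal day 4.5. The groups were untreated wild type (WT), untreated Tet2/Tet3 double knockout (DKO) with Krt14-Cre, and the same 2 genotypes after 50 µg of 5-aza, given under the skin at postnatal day 2.5. Tet2 and Tet3 encode dioxygenases that oxidise 5-methylcytosine, and 5-aza inhibits DNA methyltransferases. The Krt14 promoter is active in the basal epithelium, so the Cre acts in that lineage. The labels do not say whether the WT animals carried floxed alleles or Cre, nor whether the libraries of a group came from separate animals. Without treatment, RNA of female cells and Y-linked RNA set the 2 libraries of each genotype apart, as given below.

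Fibrillar collagens are assembled from chains of fixed partners: 2 genes, Col1a1 and Col1a2, supply the chains of collagen I, and Col5a1 and Col5a2 supply those of collagen V. In skin these genes are used chiefly by dermal fibroblasts, and collagen I fibrils incorporate collagen III and are nucleated by collagen V. Collagen VI, lumican and fibrillin-1 form the microfibrils and fibril coats around them, and Pdgfra encodes a receptor by which mesenchymal cells respond to platelet-derived growth factor. In bulk RNA, fewer cells of a type and less RNA per cell cannot be told apart.

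All 4 untreated libraries and all 4 libraries after 5-aza contained reads of all 10 genes. Their sum, in reads, was 1.03% to 2.35% of the reads in listed genes without treatment and 0.190% to 0.449% after 5-aza. The labelled epithelium was also present: Krt5, a basal keratin, ranged from 298 to 578 FPKM untreated and from 200.4 to 363 FPKM after 5-aza, and Dlx3, a hair matrix factor, from 65.8 to 96.0 and from 101 to 133 FPKM. Tet3, a targeted gene, was at 11.8 and 11.4 FPKM in untreated WT against 6.92 and 7.31 FPKM in DKO, and at 10.4 and 11.5 against 6.54 and 5.99 FPKM after 5-aza. Tet2 was at 3.23 and 3.28 against 2.72 and 2.55 FPKM untreated, and at 1.81 and 2.00 against 1.58 and 1.56 FPKM after 5-aza. Library totals ran from 19528602 to 22837436 reads untreated and from 39493929 to 58353167 reads after 5-aza, of which listed genes held 11825515 to 14132115 and 16744915 to 23512270 reads. FPKM is the number of reads per kilobase of gene length, scaled to the total of the library. The 2 tables count different things in that total and were made separately, so levels with and without 5-aza are set side by side and not tested.

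Of the 10 genes, 7 have a promoter window in the RefSeq table of build GRCm38.p6, each the 250 bases before a RefSeq start. The windows of 3 genes are printed because they span the range of CpG density among the members, CpG being the site that TET enzymes and DNA methyltransferases act on. Capitals mark CG dinucleotides, and all sequences run 5′ to 3′ in the direction of the gene. Col1a2 is at chr6:4505368-4505617 (+), Col3a1 at chr1:45311288-45311537 (+) and Col5a1 at chr2:27886175-27886424 (+). The Col1a2 window lies inside the annotated interval of the gene (chr6:4504814-4541544), so its RefSeq start is not the first annotated start.
Col1a2: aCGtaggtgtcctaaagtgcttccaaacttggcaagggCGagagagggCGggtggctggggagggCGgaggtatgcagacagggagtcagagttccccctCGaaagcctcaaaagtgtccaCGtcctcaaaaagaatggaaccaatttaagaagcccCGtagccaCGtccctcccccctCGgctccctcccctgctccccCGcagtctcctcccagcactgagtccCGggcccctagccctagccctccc
Col3a1: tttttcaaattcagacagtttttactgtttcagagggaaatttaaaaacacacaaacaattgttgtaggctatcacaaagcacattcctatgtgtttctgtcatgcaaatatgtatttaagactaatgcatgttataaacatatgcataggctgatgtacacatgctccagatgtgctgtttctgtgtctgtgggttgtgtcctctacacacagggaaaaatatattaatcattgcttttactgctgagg
Col5a1: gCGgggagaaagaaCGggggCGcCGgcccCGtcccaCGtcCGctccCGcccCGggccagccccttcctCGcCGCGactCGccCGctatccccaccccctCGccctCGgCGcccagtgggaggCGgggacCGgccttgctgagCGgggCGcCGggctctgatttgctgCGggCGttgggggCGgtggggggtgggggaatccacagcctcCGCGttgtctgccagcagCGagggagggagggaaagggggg
The Col5a1 window held 28 CG, the Col1a2 window 11 and the Col3a1 window 0, against a median of 6 over all 32851 windows. At least 28 CG were found in 7.61% of all windows and 0 CG in 7.87%. Fbn1 had 13 CG, Pdgfra 4 and Col6a1 3, and Col6a2 had 14 and 6 in windows before 2 starts. The Fbn1 window also lies inside the annotated interval of its gene, and the Col6a1 window and a Col6a2 window overlap the ends of theirs. Col1a1, Col5a2 and Lum were not matched in that table. The motifs searched, on both strands, were CCAAT and TATAAA. The first, which is in 33.8% of all windows, was present among the member windows in that of Col1a2 alone, 109 bases before the start. The other, which is in 12.4%, was present in that of Col3a1 alone, 117 bases before it.

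Collagen I was the most abundant product of the 10 genes. Col1a1 (ENSMUSG00000001506, chr11:94936224-94953042 in GRCm38), which encodes the alpha-1 chain, was at 267 and 819 FPKM in the WT libraries 1 and 2 and at 886 and 773 FPKM in the DKO libraries 1 and 2 without treatment. The DKO values fell on either side of the higher WT library, and WT library 1 stood apart at the bottom. By FPKM, Col1a1 ranked 15th of all listed genes in that library and 3rd, 4th and 4th in the others. After 5-aza it was at 71.8 and 30.1 FPKM in WT and 47.0 and 75.1 FPKM in DKO, with ranks of 72, 229, 156 and 68. The genotypes overlapped there too, but it was WT library 2 that was lowest. Col1a2 (ENSMUSG00000029661, chr6:4504814-4541544), which encodes the alpha-2 chain, was at 75.8 and 178 FPKM in untreated WT and 188 and 158 FPKM in DKO. After 5-aza its levels were 23.6 and 9.50 FPKM in WT and 9.80 and 18.6 FPKM in DKO. The order of the 4 libraries matched that of Col1a1 without treatment, and after 5-aza the WT libraries were the highest and the lowest.

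Collagen III, encoded by Col3a1 (ENSMUSG00000026043, chr1:45311538-45349706), was at 82.7 and 194 FPKM in untreated WT and at 199.96 and 154 FPKM in DKO. After 5-aza it was at 34.4 and 12.9 FPKM in WT and at 14.4 and 27.5 FPKM in DKO. In both tables the WT libraries lay further apart than the DKO libraries. The collagen V genes were lower and varied less without treatment. Col5a1 (ENSMUSG00000026837, chr2:27886425-28039514) was at 35.9 and 53.8 FPKM in WT and 52.1 and 45.7 FPKM in DKO, and Col5a2 (ENSMUSG00000026042, chr1:45374321-45503282) at 18.1 and 28.6 against 25.3 and 23.2 FPKM. Both DKO libraries lay between the WT libraries for each of these genes. After 5-aza Col5a1 was at 11.2 and 5.18 FPKM in WT and 6.48 and 10.1 FPKM in DKO, and Col5a2 at 8.72 and 4.02 against 4.37 and 6.66 FPKM, again with DKO inside the WT range.

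Collagen VI forms beaded microfibrils near cell surfaces. Col6a1 (ENSMUSG00000001119, chr10:76708792-76726168) was at 44.4 and 71.1 FPKM in untreated WT and 63.2 and 47.1 FPKM in DKO. Col6a2 (ENSMUSG00000020241, chr10:76595762-76623630) was at 14.6 and 23.7 against 21.6 and 16.1 FPKM. For both genes the DKO libraries lay inside the WT range. After 5-aza Col6a1 was at 6.40 and 2.45 FPKM in WT and 3.44 and 7.54 FPKM in DKO. Col6a2 was at 2.49 and 0.882 against 1.23 and 2.60 FPKM, and DKO library 2 was the highest of the 4 for both genes.

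Lumican is a small leucine-rich proteoglycan that binds collagen fibrils. Lum (ENSMUSG00000036446, chr10:97565128-97572703) was at 5.93 and 17.1 FPKM in untreated WT and 24.9 and 10.2 FPKM in DKO, and at 1.08 and 0.366 against 0.673 and 0.729 FPKM after 5-aza. It also rested on the fewest reads, 331 to 1352 without treatment and 41 to 124 after 5-aza, where the 2 DKO libraries lay between the WT libraries. Fbn1 (ENSMUSG00000027204, chr2:125300594-125507993), which encodes fibrillin-1 of the elastic microfibrils, was at 12.6 and 19.8 FPKM in untreated WT and 15.3 and 14.9 FPKM in DKO, and at 3.06 and 1.68 against 2.00 and 2.94 FPKM after 5-aza. Its DKO libraries lay inside the WT range in both tables. Pdgfra (ENSMUSG00000029231, chr5:75152292-75198215) was at 7.02 and 8.56 FPKM in untreated WT and 6.31 and 5.94 FPKM in DKO. Here alone among the 10 genes the genotypes did not overlap, with DKO below WT. Both DKO libraries lay below both WT libraries for 19.3% of all tested genes, a share that counts this direction alone. After 5-aza Pdgfra was at 1.83 and 0.780 FPKM in WT and 0.560 and 1.19 FPKM in DKO, and the genotypes overlapped.

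**Figure D1:**
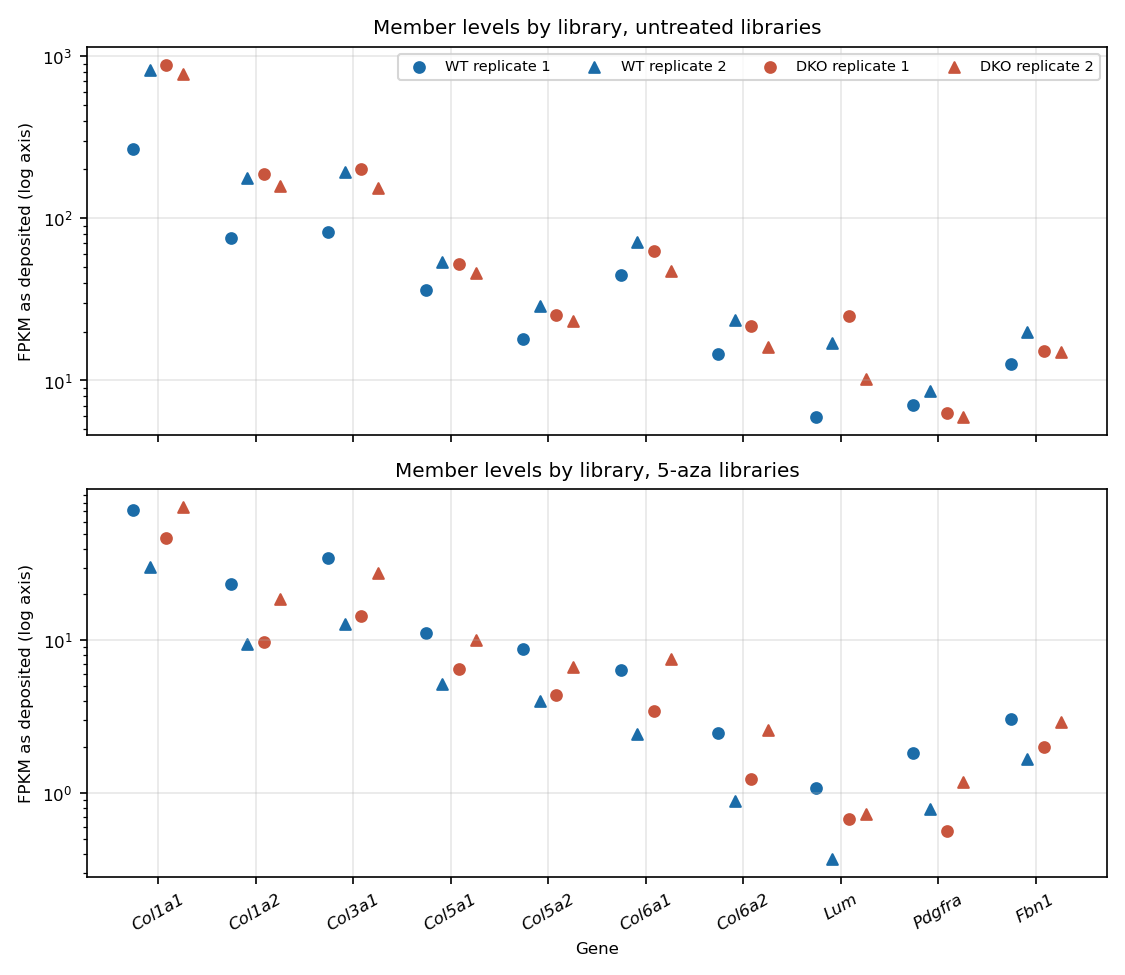
FPKM of the 10 genes in each library, on a log axis, in untreated libraries (top) and after 5-aza (bottom); colour gives the genotype and the marker the replicate number. WT library 1 is the lowest point of 9 of the 10 genes without treatment, and WT library 2 of 9 of the 10 after 5-aza.

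All 10 genes are protein-coding, and their deposited positions match those of the GENCODE M21 annotation. Exons of Col3a1 (Gm47302), Col5a1 (2810430I11Rik and Gm13372), Pdgfra (Gm42802, Gm42803 and Mir7025) and Fbn1 (Gm9913) overlap other annotated genes, most of them on the opposite strand. The strand setting of the counting is not given in the sources used here, so reads of such partners cannot be told apart from those of these 4 genes.

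Within each group the libraries differed in the same direction for all 10 genes. In untreated WT, library 2 was above library 1 for 10 of 10 genes, against 64.7% of all tested genes, by 1.22-fold (Pdgfra) to 3.07-fold (Col1a1). The median of the 10 ratios of the higher to the lower library was 1.61, and over all genes it was 1.17. Col1a1, Col1a2 (2.34-fold), Col3a1 (2.35-fold) and Lum (2.88-fold) reached 2-fold, which is 4 of 10 genes where 3.86% of all tested genes did. In untreated DKO, library 1 was above library 2 for 10 of 10 genes, against 48.0% of all genes. These ratios were smaller, from 1.02 for Fbn1 to 2.45 for Lum. Their median was 1.17, close to the 1.13 over all genes. Lum was the 1 gene of 10 past 2-fold, where the share over all genes was 1.97%.

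After 5-aza the library numbers were the other way round. WT library 1 was above library 2 for 10 of 10 genes, where the share over all genes was 57.4%, and by 1.83-fold (Fbn1) to 2.94-fold (Lum). Of the 10 genes, 9 reached 2-fold, where the share over all genes was 6.59%. Col1a1 differed 2.39-fold, Col3a1 2.67-fold and Col6a2 2.82-fold. DKO library 2 was above library 1 for 10 of 10 genes, against 46.8% of all genes, by 1.08-fold (Lum) to 2.19-fold (Col6a1). Col6a1, Col6a2 (2.12-fold) and Pdgfra (2.12-fold) reached 2-fold, 3 of 10 where 6.13% of all genes did. The medians over the 10 genes were 2.43 in WT and 1.75 in DKO, and 1.14 over all genes in each. The replicate numbers carry no order and are not tied to animals or days by the labels, and the 10 genes are not independent of each other within a library.

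**Figure D2:**
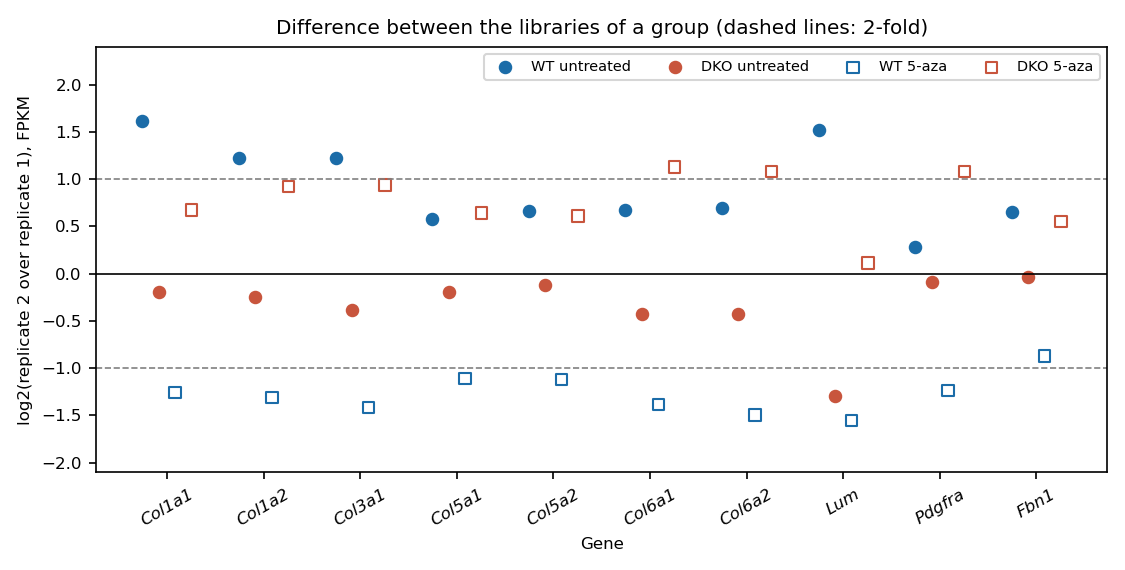
Difference between the libraries of each group for each gene, as log2 of replicate 2 over replicate 1 in FPKM, with dashed lines at 2-fold. Untreated WT lies above 0 and WT after 5-aza below 0 for all 10 genes, with the sign reversed in DKO.

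The genotype comparison asks whether loss of Tet2 and Tet3 in the epithelium goes with other levels of these genes. None of the 10 passed the test in untreated libraries (limma on log2(FPKM + 1), Benjamini-Hochberg adjusted over 17339 genes), where 0.00577% of all tested genes, a single gene, passed at an adjusted p under 0.05. At an unadjusted p under 0.05 the members numbered 0 and all genes 11.5%, and voom on the recovered reads also called 0 of the 10 at an adjusted p under 0.05. Col1a1 had the largest difference, with DKO minus WT of 0.82 ± 0.72 (log2, SE, 2 libraries per group). Lum followed at 0.61 ± 0.60, Col1a2 at 0.57 ± 0.45 and Col3a1 at 0.46 ± 0.46, each with an error about as large as the difference. Col5a1 (0.15 ± 0.23), Col5a2 (0.08 ± 0.23), Col6a1 (-0.04 ± 0.29), Col6a2 (-0.00 ± 0.27) and Fbn1 (-0.06 ± 0.22) lay within 1 SE of 0. Without WT library 1 the difference was -0.04 for Col1a2, -0.15 for Col3a1 and -0.09 for Lum, and for Col1a1 it was 0.01. Without WT library 2 they were larger, with 1.63 for Col1a1 (unadjusted p = 0.0262, adjusted p = 0.277 by limma). The sign of Lum was also lost without DKO library 1, at -0.00064.

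Pdgfra differed by -0.30 ± 0.12, the most precise of the 10 differences, and its adjusted p of 0.451 (limma) was the lowest among them. The highest was 0.999. Pdgfra was also the 1 gene of 10 whose DKO libraries both lay below both WT libraries, as they did for 19.3% of all tested genes. Its unadjusted p was 0.0548, and 0.0285 with voom, 0.0185 with median-ratio scaling and 0.0106 when scaled to the reads in listed genes, where the adjusted p (limma) was 0.308, 0.317 and 0.285. With any 1 library left out the difference of Pdgfra ranged from -0.42 to -0.17, and its sign could not turn, since the genotypes did not overlap. In the authors' deposited table its log2 difference was -0.37 with a standard error of 0.123, a p of 0.00263 and an adjusted p of 0.149, and 0 of the 10 genes passed there, against 1.28% of all genes. The median difference of the 10 genes was 0.12, and 6 of 10 were positive; over all tested genes the median was 0.01 and 53.8% were positive. Without WT library 1 the median of the 10 was -0.19, and without WT library 2 it was 0.42.

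**Figure D3:**
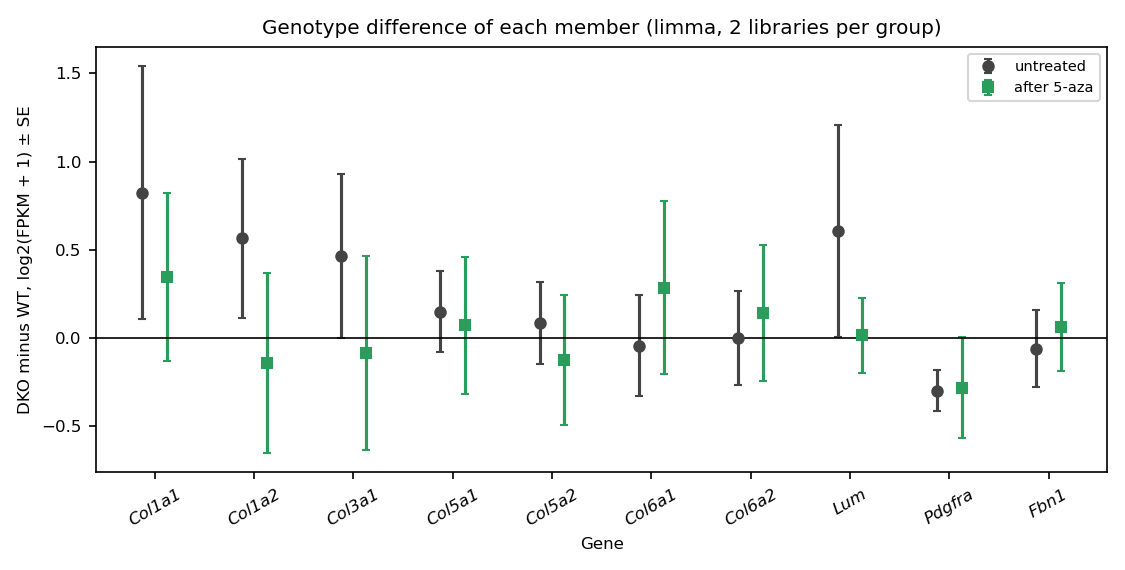
DKO minus WT in log2(FPKM + 1) for each gene, with the standard error of the limma fit as bars, in untreated libraries and after 5-aza. The differences lie between -0.30 and 0.82, and none passed the test in either set.

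After 5-aza none of the 10 genes passed either (limma on log2(FPKM + 1)), and the background was 0% of 16856 genes. At an unadjusted p under 0.05 the members again numbered 0, against 8.94% of all genes, and voom on the recovered reads called 0 genes of the whole table. Col1a1 differed by 0.35 ± 0.48 and Col6a1 by 0.29 ± 0.49, and Pdgfra by -0.28 ± 0.29. For Pdgfra, whose FPKM is low, the difference was -0.50 with a pseudocount of 0.1, -0.51 with voom and -0.64 in the authors' deposited table. The other 7 lay between -0.14 (Col1a2) and 0.14 (Col6a2). Adjusted p-values (limma) ran from 0.828 to 0.992. No gene of the 10 had groups that did not overlap, against 39.6% of all tested genes in either direction. The median of the 10 differences was 0.04, and of all genes 0.03. It was 0.52 without WT library 1 and -0.36 without WT library 2, so its direction depended on which WT library was kept. None of the 10 passed in the authors' deposited table of the 5-aza libraries, against 0.708% of all genes. Xist and Y-linked RNA also differed between the genotypes in these libraries, as given below, and their part was not tested.

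The interaction asks whether the genotype difference itself changed with 5-aza. It was fitted over 8 libraries and 15699 genes, and 0 of the 10 genes passed, against 0.0191% of all genes (limma, adjusted p under 0.05) and, at an unadjusted p under 0.05, 0 members against 5.61%. Col1a2 (-0.71 ± 0.76), Lum (-0.59 ± 0.75), Col3a1 (-0.55 ± 0.80) and Col1a1 (-0.48 ± 0.85) had negative values. Col6a1 was at 0.33 ± 0.64, and the other 5 lay between -0.21 (Col5a2) and 0.14 (Col6a2). Adjusted p-values (limma) ran from 0.962 to 0.999. Errors of this size leave differences of more than 1 on the log2 scale within 2 SE for each of the fibrillar genes Col1a1, Col1a2 and Col3a1.

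Ratios between partner chains varied less than the levels. On the deposited scale Col1a1 over Col1a2 was 3.51 and 4.61 in untreated WT and 4.71 and 4.89 in DKO, although Col1a1 itself ranged 3.07-fold between the WT libraries. After 5-aza it was 3.05 and 3.17 in WT and 4.80 and 4.04 in DKO. Col5a1 over Col5a2 was 1.99 and 1.88 in WT and 2.06 and 1.97 in DKO untreated, and 1.28 and 1.29 against 1.48 and 1.52 after 5-aza. Col6a1 over Col6a2 stayed between 2.93 and 3.04 untreated, and was 2.57 and 2.78 against 2.81 and 2.90 after 5-aza. Col3a1 over Col1a1 was 0.310 and 0.237 in WT and 0.226 and 0.199 in DKO, and 0.479 and 0.429 against 0.305 and 0.367 after 5-aza. With and without 5-aza, Col1a1 over Col1a2 was higher in both DKO libraries than in both WT libraries, and Col3a1 over Col1a1 was lower. Col5a1 over Col5a2 overlapped between the genotypes without treatment and was higher in DKO after 5-aza. Col6a1 over Col6a2 was higher in WT than in DKO without treatment and higher in DKO after 5-aza. No such ratios were computed for other genes, so no background share can be set beside them. With 2 libraries a group these ratios are a description, with no test.

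**Figure D4:**
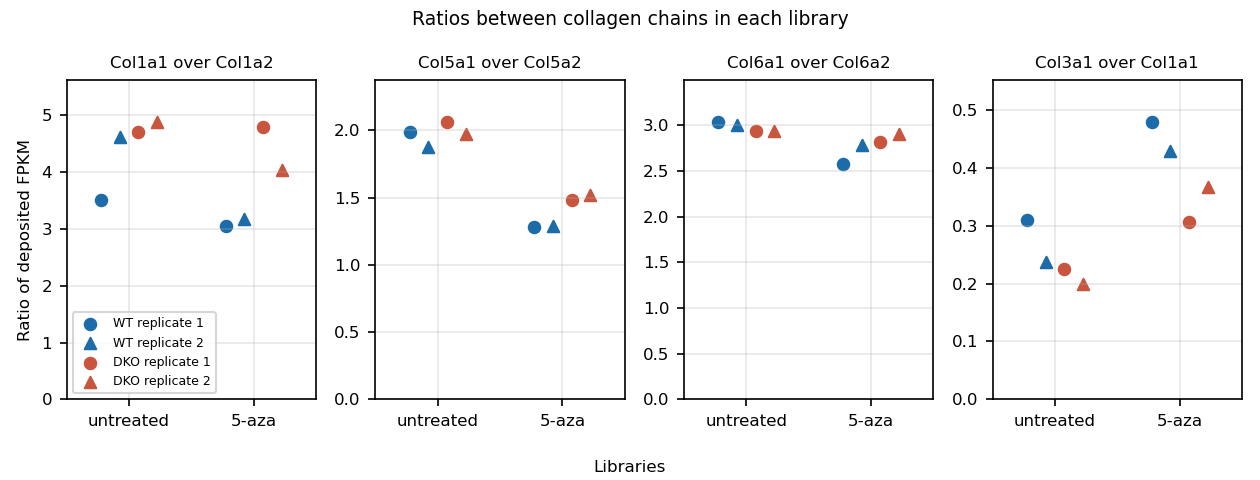
Ratio of deposited FPKM between collagen chains in each of the 8 libraries, by genotype and treatment. Col6a1 over Col6a2 lies between 2.57 and 3.04 throughout, while Col1a1 over Col1a2 runs from 3.05 to 4.89.

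The size of such ratios depends on the gene length behind the FPKM. The deposited length sums the exons of all annotated transcripts, which it equals for 97.6% of genes in the untreated table and 97.5% in the other. For Col1a2 it was 18207 bases, 3.40 times its longest transcript, and for Pdgfra 24606 bases, 3.60 times; for Col1a1 it was 7065 bases, 1.19 times. With the longest transcript instead, the median of Col1a1 over Col1a2 was 1.63 untreated and 1.26 after 5-aza, where the deposited scale gave 4.66 and 3.60. The order of the genes moved as well. Col1a1 was first in all 8 libraries on both scales, and Col1a2 was second in all 8 on the longest-transcript scale but behind Col3a1 in 7 of 8 on the deposited scale. In untreated DKO library 2 Col1a2 and Col3a1 were at 158 and 154 FPKM, closer than the libraries of their group. Pdgfra or Lum was last in every library on either scale. Ratios of FPKM of 1 gene between libraries of a table do not depend on the length, whereas differences of log2(FPKM + 1) do, since the constant weighs more where the FPKM is low.

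Other genes of matrix assembly and signalling, 94 in 8 lists, were read beside the 10. By limma 0 of the 90 that passed the filter were called in untreated libraries and 0 of 87 after 5-aza; at an unadjusted p under 0.05, 8 were higher and 5 lower in DKO without treatment, and 11 and 0 after 5-aza. Over all tested genes 11.5% and 8.94% were under that p, 1120 of them higher and 387 lower after 5-aza. On the recovered reads voom called 1 of them, Tgfb2, a TGF-beta ligand, in untreated libraries, against 147 of all 17339 tested genes. Without treatment 5 of the 94 passed in the authors' deposited table, against 1.28% of all genes. Tgfb2 was higher in DKO by 1.34 (log2) and Ddr1, a collagen receptor of epithelium, by 0.50, whereas Fbln2, an elastic fibre protein, fell by 0.61, Ddr2, a fibrillar collagen receptor of mesenchyme, by 0.56 and Col15a1, a collagen beneath basement membranes, by 0.53. After 5-aza 2 passed in the authors' deposited table: Tgfb2, higher by 1.31, and P3h2, a collagen prolyl hydroxylase, higher by 1.27. The share over all genes there was 0.708%.

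Several of these genes are given by library. Sparc, a collagen-binding protein, was at 29.8 and 80.0 FPKM in untreated WT and 75.7 and 57.1 FPKM in DKO, and at 8.28 and 3.02 against 3.69 and 7.57 FPKM after 5-aza. Bgn, the proteoglycan biglycan, was at 17.8 and 40.4 FPKM in untreated WT and 32.1 and 27.1 FPKM in DKO. Both had WT library 1 at the bottom without treatment. P4hb, a subunit of collagen prolyl 4-hydroxylase that most cells also use for protein folding, was at 74.5 and 83.5 FPKM in untreated WT and 81.4 and 80.5 FPKM in DKO, with WT library 1 lowest too but the libraries closer together, and at 47.0 and 42.4 against 46.5 and 45.5 FPKM after 5-aza. Dcn, the proteoglycan decorin, was at 27.3 and 38.6 FPKM against 43.3 and 31.9 FPKM untreated, but at 10.9 and 14.1 against 24.4 and 16.6 FPKM after 5-aza, where its order differed from that of all 10 genes. Of the 94 genes, 21 were at least 2-fold higher in WT library 2 than in library 1 without treatment, where 3.86% of all tested genes were, and 30 were so in WT library 1 after 5-aza, where 6.59% were. Pdgfrb, the other receptor for platelet-derived growth factor, was at 6.98 and 8.06 FPKM in untreated WT and 5.88 and 5.46 FPKM in DKO, in the same order of genotypes as Pdgfra.

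The genes whose profile over the 8 libraries was nearest to the mean profile of the 10 were Eln, Mmp2, Gm5518, Cpe and Egfl6, out of 8687 candidates. Likeness was the root mean square difference of log2(FPKM + 1), centred within each table. Eln, which encodes elastin, differed by 0.04 from that mean and was nearer than any of the 10 genes themselves, which ranged from 0.09 (Col5a1) to 0.33 (Lum). Its levels were 8.67 and 15.6 FPKM in untreated WT and 15.3 and 12.7 FPKM in DKO, and 4.24 and 1.59 against 1.91 and 3.59 FPKM after 5-aza. Mmp2, a matrix metalloprotease, differed by 0.10. The other 3 differed by 0.13 to 0.15, and a flat profile by 0.38. Each gene's 8 points come from the same libraries, which differ in depth and in cell markers, so this is a description.

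Markers of other cells moved between libraries as well, and differently in the 2 tables. Without treatment the summed FPKM of the 10 genes was 564 and 1413 in WT and 1482 and 1248 in DKO. The sum of 15 other fibroblast markers was 101 and 149 against 147 and 122, so WT library 1 was lowest there too, and so it was for 8 mural markers, at 49.7 and 91.0 against 75.0 and 81.6. The 16 dermal papilla markers were at 407 and 418 in WT and 284 and 267 in DKO, with the WT libraries 1.03-fold apart, and 8 of them passed in the authors' deposited table as lower in DKO. The 13 hair matrix epithelium markers, of which Krt85 is not in either table, were at 403 and 430 against 418 and 549. Endothelial markers were at 2.67 and 1.83 against 4.34 and 3.96, and stress genes at 176 and 148 against 169.8 and 188, in other orders than the 10 genes. Xist, an RNA of female cells, was at 82.1 and 0.327 FPKM in WT and 74.4 and 1.19 FPKM in DKO, and Y-linked Ddx3y at 0.0155 and 3.50 against 0.0755 and 2.90 FPKM, so that each genotype had 1 library of each kind. Their part in the differences among the 10 genes was not tested.

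After 5-aza the summed FPKM of the 10 genes was 165 and 67.8 in WT and 89.9 and 153 in DKO. The 6 melanocyte markers were at 93.3 and 19.7 against 26.6 and 134, and the 16 dermal papilla markers at 153 and 65.2 against 44.7 and 91.4. Both had the same higher library in each genotype as the 10 genes. So did 7 adipocyte markers, at 4.44 and 2.27 against 2.14 and 3.75, 7 Schwann and Merkel markers, at 3.39 and 1.497 against 1.08 and 2.98, and 8 endothelial markers, at 0.954 and 0.495 against 0.569 and 0.966. Fabp4 alone gave 4.04 and 1.92 against 1.71 and 3.25 of the adipocyte sums. Of the 7 adipocyte markers 4 passed the filter, and Adipoq was at 0 and 0 against 0 and 0.00939 FPKM. Genes of dissociation stress also had the same higher library in each genotype, at 133 and 90.7 against 107 and 137. Mitochondrial genes took 0.763% and 1.35% of the listed reads in WT and 1.51% and 0.684% in DKO, with the other library higher in each genotype. In the same libraries the hair matrix epithelium markers were at 492 and 574 against 532 and 524 and differed by at most 1.17-fold within a genotype. Basal and outer root sheath epithelium markers were at 438 and 353 against 636 and 752. Mural markers were at 22.3 and 19.9 against 19.2 and 20.9. The basal and outer root sheath list and the mural list had the same higher library in each genotype as the 10 genes. The hair matrix epithelium list had the other library higher in each genotype. The 15 other fibroblast markers were at 32.2 and 27.6 against 39.0 and 36.5, with the higher DKO library the other one. Dcn gave 24.4 of the 39.0 there. In the authors' deposited table Prrx1, a mesenchymal transcription factor, fell by 0.46 (log2) in untreated DKO. Fn1, which encodes fibronectin, was higher by 0.57 in DKO after 5-aza. These were the 2 genes of the fibroblast list that passed, where 1.28% of all genes passed untreated and 0.708% after 5-aza. Immune markers were at 4.40 and 3.63 against 3.76 and 3.83, with the same higher library in each genotype as the 10 genes, but the DKO libraries were only 1.02-fold apart. H2-Eb1 gave 2.52 and 2.35 against 1.89 and 1.48 of these sums, and 5 of the 13 immune markers passed the filter. The part of these cells and signs of quality in the differences among the 10 genes was not tested.

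**Figure D5:**
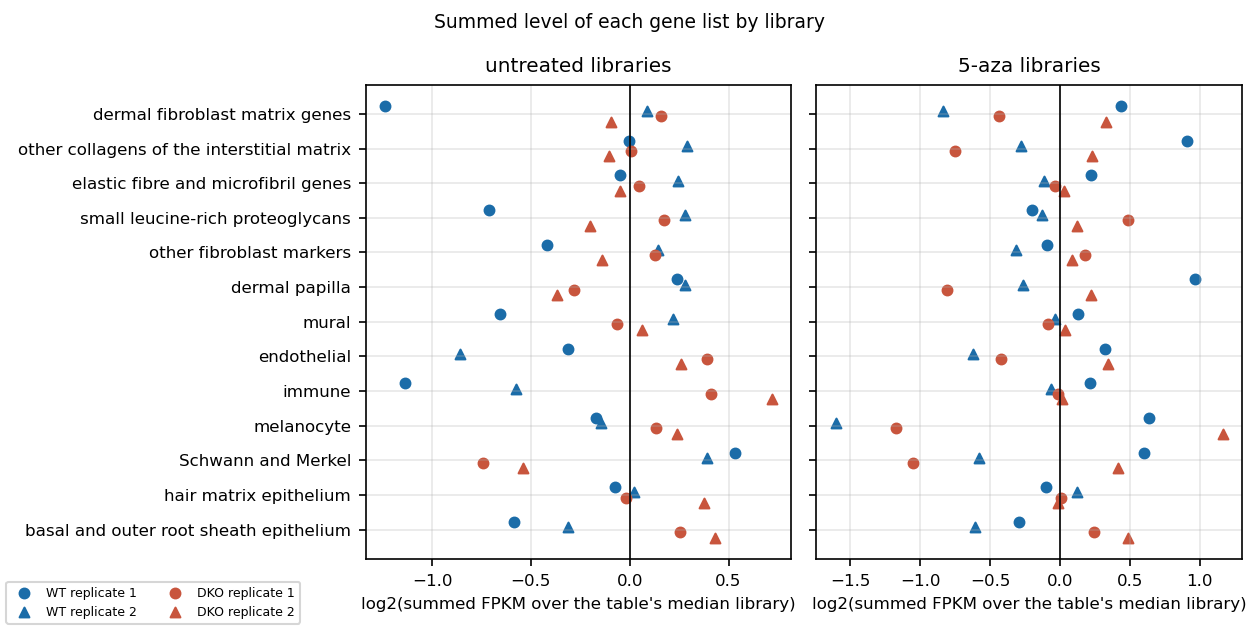
Summed FPKM of each gene list in each library, as log2 over the median library of its table, without treatment (left) and after 5-aza (right). The 10 genes spread from 564 to 1482 summed FPKM without treatment and from 67.8 to 165 after 5-aza, and the melanocyte markers, closely spaced without treatment, spread from 19.7 to 134 after 5-aza.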

How the data were processed

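Per the labels, RNA of sorted hair matrix keratinocytes was sequenced in 4 groups of 2 libraries. The labels of all samples name a messenger RNA kit, whereas the series text names a stranded kit with ribosomal depletion, so which was used is open to doubt. Tools in the submitters' processing notes are DESeq2, HTSeq, STAR and Trim Galore, with builds mm10 and GRCm38 and no version. The authors deposited 1 table per treatment. The authors scaled reads to FPKM by gene length and library total, as deposited. The headers name no unit, which was inferred from the values: for every gene with an FPKM, FPKM times length is a whole multiple, to 6 decimals, of 1 step per library, and that step gives the library total. Means over libraries, as deposited, are a signal of size-factor-scaled reads. The deposited fold changes are log2 values of WT over DKO, with the sign turned here. The deposited statistic is a score, and the deposited p-value columns are the authors' DESeq2 results. The deposited length is the sum of exon lengths over all transcripts.

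Differences were fitted with limma 3.58.1 in R 4.3.3 on log2(FPKM + 1) with a variance trend, Benjamini-Hochberg adjusted over all tested genes at 0.05. A fold change on this scale understates that of low genes. Genes entered with 10 or more reads, scaled to the median depth, in 2 or more libraries and 15 or more in all. All 10 members passed in both tables. P-values set a difference against the spread between these libraries. Without treatment the 2 libraries of each genotype came from different animals, by their Xist and Y-linked RNA. After 5-aza it is not known whether the libraries came from separate animals. Whether their spread is between animals, between pools or technical cannot be told. Alternatives were other scalings, filters, pseudocounts, voom, a replicate block, a fit of all 8 libraries and leaving out each library. Members and lists were chosen with earlier results of these data known. Named beside the members were list genes past a threshold, up to 3 of the most abundant of a list and the 5 nearest profiles; Eln, Mmp2 and the sex-linked genes came from these rules.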

Additional observations from a re-analysis of the deposited data

How the results depend on the processing

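No member passed the test in any of 428 values over 22 settings (limma or voom), where the lowest adjusted p was 0.153; at an unadjusted p under 0.05 there were 15 such values. In 366 of the 428 the sign was that of the reported value. The replicate blocks, filters, variance trend and fit of all 8 libraries leave the difference itself unchanged, so their signs were fixed beforehand. Over all genes, 1 passed in untreated libraries, against 0 with no filter, 0 with no variance trend, 8 with a pseudocount of 0.1, 111 with all 8 libraries in 1 fit, 147 with voom on the recovered reads and 0 without any 1 library. After 5-aza 0 passed, and 1 with all 8 libraries in 1 fit. In the interaction 3 passed, against 1 each with a pseudocount of 0.1, a mean of at least 1 FPKM, no trend and voom, and 0 to 2 without any 1 library. Lum gave no value under the mean FPKM filter after 5-aza and in the interaction.

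With the replicate number as a block, 13 genes passed untreated, 0 after 5-aza and 0 in the interaction. Deviations of same-numbered libraries correlated at 0.0317 untreated and -0.589 after 5-aza, where the crossed pairing, chosen after seeing the data, called 91. The labels give the numbers no meaning. Without treatment, however, library 1 was the one with Xist and library 2 the one with Y-linked RNA in both genotypes. The untreated block therefore also separates these.

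Scaling to the reads in listed genes gave -0.0072 for Col5a1, -0.019 for Lum and -0.00039 for Fbn1 after 5-aza, and median-ratio scaling -0.0092 for Lum. The interaction of Pdgfra was -0.17 with a pseudocount of 0.1 and -0.18 with voom. With the longest transcript, chosen after seeing the data, median ratios untreated and after 5-aza were 1.63 and 1.26 for Col1a1 over Col1a2, 1.24 and 0.867 for Col5a1 over Col5a2, 1.32 and 1.24 for Col6a1 over Col6a2 and 0.439 and 0.754 for Col3a1 over Col1a1. The cause of these changes was not tested, except that the ratios follow from the lengths.

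With 1 library left out, the untreated differences ranged from -0.043 to 1.17 for Col1a2, -0.15 to 1.07 for Col3a1, -0.14 to 0.43 for Col5a1, -0.23 to 0.40 for Col5a2, -0.38 to 0.29 for Col6a1, -0.33 to 0.33 for Col6a2, -0.37 to 0.25 for Fbn1 and -0.085 to 1.30 for Lum. Those after 5-aza ranged from -0.27 to 0.96 for Col1a1, -0.75 to 0.47 for Col1a2, -0.76 to 0.59 for Col3a1, -0.42 to 0.56 for Col5a1, -0.60 to 0.35 for Col5a2, -0.26 to 0.84 for Col6a1, -0.30 to 0.59 for Col6a2, -0.24 to 0.36 for Fbn1, -0.29 to 0.32 for Lum and -0.62 to 0.053 for Pdgfra. The interaction ranged from -1.29 to 0.33 for Col1a1, -1.22 to 0.13 for Col3a1, -0.57 to 0.41 for Col5a1, -0.68 to 0.27 for Col5a2, -0.22 to 0.88 for Col6a1, -0.30 to 0.59 for Col6a2, -0.19 to 0.43 for Fbn1, -1.28 to 0.10 for Lum and -0.32 to 0.35 for Pdgfra. The cause of these reversals was not tested beyond the loss of 1 library.

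Depth limits Lum most, at 41 to 124 reads per library after 5-aza.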

Other observations

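All 4 libraries after 5-aza held both Xist and Y-linked RNA, whereas each untreated library held mainly one of them. Xist was at 16.9 and 23.1 FPKM in WT and 4.60 and 3.65 FPKM in DKO after 5-aza, and Ddx3y, a Y-linked RNA helicase gene, at 1.24 and 0.917 against 2.08 and 2.00 FPKM. In the authors' deposited table Xist was lower in DKO after 5-aza by 2.35 (log2), and 4 Y-linked genes were higher. The genotype comparison after 5-aza and the interaction therefore also set unlike mixes of Xist and Y-linked RNA against each other. Their part in the differences was not tested. The labels do not say whether animals were pooled. The higher library of the 10 matrix genes in untreated WT was the one with Ddx3y at 3.50 FPKM, and in untreated DKO it was the one with Xist at 74.4 FPKM.

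Immune markers stood apart from the matrix genes without treatment. Their summed FPKM was 7.003 and 10.3 in WT and 20.4 and 25.3 in DKO, higher in both DKO libraries, and 5 of 13 passed in the authors' deposited table as higher in DKO, among them Cd74, which serves antigen presentation, by 1.75 on the log2 scale. The adipocyte genes Cd36, a fatty acid transporter, and Fabp4, a fatty acid binding protein, were higher in DKO by 1.74 and 1.90 in the authors' deposited table. None of these passed by limma on log2(FPKM + 1), and voom on the recovered reads called Cd74 and Cd36 but not Fabp4.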
